A study of Mus musculus with 2 samples.

Results

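Genes of the oligodendrocyte lineage, from precursor cells to myelin, were described in whole midbrain of newborn mice. The set was named by symbol, and each gene was assigned to a stage: 10 precursor genes, 10 genes of committed and newly formed oligodendrocytes, and 14 genes of myelin and mature cells. The assignment is a choice made here, since some genes act at several stages, and medians, sums and counts by stage depend on it. Of the 34 named genes, 33 matched 1 gene each in the deposited tables, out of 43346 Ensembl genes. Lhfpl3, a precursor gene, did not match by symbol and was not analysed here, which left 9 precursor genes.

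Oligodendrocytes are the cells that wrap axons of the brain and spinal cord in myelin. Their precursors divide in response to platelet-derived growth factor through the receptor PDGFRA and carry the proteoglycan NG2, the product of Cspg4. The transcription factors OLIG1, OLIG2, SOX10 and NKX2-2 set up the lineage, cells that leave the cycle pass through a short stage marked by GPR17, BCAS1 and ENPP6, and MYRF then drives the genes of the myelin proteins and lipids. In the mouse brain, precursors spread before birth and most myelin is laid down in the weeks after it, with the hindbrain ahead of the forebrain.

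The design held 1 group of 2 libraries, which the labels give as biological replicates made from separate isolates. Both came from midbrain of mice aged 0 days of the strain B6NTac;B6NCrl/Lap, with males and females pooled, no treatment and no altered gene given in the labels. Replicate 1 was a pool of 15 animals, and the size of the pool of replicate 2 is not given in the labels used here. RNA longer than 200 nucleotides was depleted of ribosomal RNA and sequenced as stranded libraries with paired reads, so RNA with and without a poly(A) tail was measured.

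With 1 group there was nothing to test between conditions, and values are described as levels, their order and their difference between the isolates. Replicate 1 had 46685706 counts in total and replicate 2 had 72779229, and the 33 genes together held 0.160% and 0.172% of the counts on genes. Levels are in TPM, an abundance scale with the same total in each library, which corrects for length and allows genes to be compared. Deposited TPM sat lower in replicate 2 over the 18554 genes that had 10 or more counts in both libraries together (median log2 ratio -0.25), so differences between the libraries are given on counts scaled by the trimmed-mean method (TMM), where that median was 0.01. In bulk tissue, fewer cells of a type and less RNA per cell cannot be told apart.

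Median levels were highest for precursor genes, lower for committed and newly formed cells and lowest for myelin genes, in both libraries. The median precursor gene stood at 7.44 TPM in replicate 1 and 5.69 in replicate 2 (6.57 ± 1.24, SD, n = 2). Genes of committed and newly formed cells had a median of 2.13 and 1.68 TPM (1.90 ± 0.322), and myelin genes one of 0.77 and 0.755 TPM (0.763 ± 0.0106). The precursor median was above the myelin median by a log2 ratio of 3.27 in replicate 1 and 2.91 in replicate 2, or 3.09 ± 0.25 over both, which is 8.53-fold. The summed TPM of the stages did not follow that order. It was 119 and 113 for precursor genes, 27.4 and 28.0 for committed and newly formed cells, and 107 and 98.5 for myelin genes, of which Gpm6b held 70.8 and 59.1.

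A gene was counted as detected at 1 TPM or more in both libraries. By that measure 21 of the 33 genes were detected, or 63.6%, beside 27.7% of all Ensembl genes and 53.8% of protein-coding genes. All 9 precursor genes passed, 6 of 10 genes of committed and newly formed cells, and 6 of 14 myelin genes. On coding transcripts alone 19 genes passed, without Nkx6-2 and Bcas1. The coding transcript of Nkx6-2 was at 1.25 and 0.79 TPM, and coding transcripts held 34.5% of the 2.00 TPM of Bcas1 in replicate 1. The counts that follow are for whole genes. Of the 12 that did not pass, 11 were below 1 TPM in both libraries and Zfp488 was on either side of it. The threshold refers to all RNA in the library, in which protein-coding genes held only 22.4% of the TPM in replicate 1 and 19.8% in replicate 2.

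**Figure D1:**
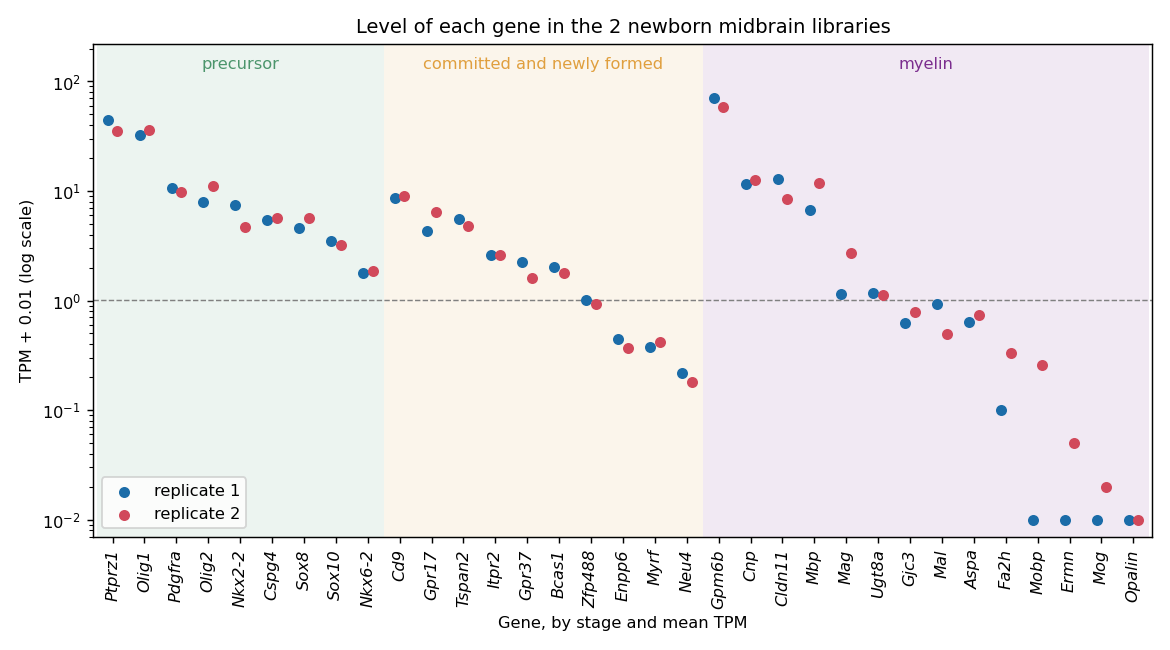
Level of each gene in each library, as TPM + 0.01 on a log axis (vertical), with genes grouped by stage and ordered by mean TPM within a stage (horizontal); each point is 1 library and the dashed line marks 1 TPM. All 9 precursor genes lie above the line, and 8 of the 14 myelin genes lie below it in both libraries, with Opalin listed at 0 in both.

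Among precursor genes the highest were Ptprz1, a receptor-type tyrosine phosphatase that also exists as a secreted proteoglycan, and Olig1, a basic helix-loop-helix factor. Ptprz1 was at 44.6 TPM in replicate 1 and 35.2 in replicate 2, which placed it at percentile 95.9 of protein-coding genes. It is also made by radial glia and astrocytes, whose markers were plentiful here: all 7 were detected and their summed level was 353 and 282 TPM, with Fabp7 at 218 and 131. The part of those cells in the Ptprz1 level was not tested.

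Olig1 stood at 32.7 and 36 TPM and its neighbour Olig2 at 7.94 and 11.2 TPM. The genes lie 41.1 kb apart on chromosome 16 (mm10; Olig2 at 91225457 to 91228677, Olig1 at 91269772 to 91271933), both on the plus strand. Olig1 was the higher in both libraries, by a log2 ratio of 1.85 ± 0.24 on TPM + 0.1, or 3.61-fold. Both factors are needed for the lineage, and Olig2 also acts earlier, in patterning ventral progenitors.

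Pdgfra, the growth factor receptor that defines the precursor, was at 10.7 and 9.75 TPM, and Cspg4 at 5.42 and 5.61. Pdgfra was higher in both libraries, by 0.87 ± 0.12 on the log2 scale, which is under the 2-fold used here to call a pair. Ptprz1 in turn exceeded Pdgfra 3.86-fold (1.95 ± 0.15). Fibroblasts of the meninges also express Pdgfra and mural cells of vessels also express Cspg4. Markers of those fibroblasts summed to 89.2 and 70.0 TPM (6 of 6 detected) and markers of mural cells to 46.1 and 37.9 TPM (5 of 5), so their RNA was in the samples. Their share of the Pdgfra and Cspg4 levels was not tested.

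The SOXE factors, which open and hold the oligodendrocyte program, stood close together. Sox10 was at 3.52 and 3.23 TPM and Sox8 at 4.58 and 5.69 TPM, with Sox8 above Sox10 in both libraries by less than 2-fold. Sox10 is shared with Schwann cells, the myelinating cells of peripheral nerve. None of the 7 Schwann cell markers reached 1 TPM in both libraries, and all 7 together summed to 1.66 and 1.30 TPM.

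The homeodomain factors of the lineage stood well apart, and Nkx6-2 was the lowest of the 9 precursor genes. Nkx2-2, which marks ventral progenitors and differentiating precursors, was at 7.44 and 4.73 TPM, and Nkx6-2 at 1.76 and 1.84. Nkx2-2 was the higher of the pair in both libraries (log2 1.67 ± 0.50, 3.18-fold). Its TPM was lower in replicate 2 while its scaled counts were higher there (408 and 908 counts, log2 ratio 0.55). In replicate 1, 2 short transcripts of Nkx2-2 without a coding frame, of 340 and 378 bases, took 23.2% and 28.6% of its TPM on 8 and 16 counts, and in replicate 2 they took 2.46% and 1.52%.

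In committed and newly formed cells the tetraspanins and Gpr17 led. Cd9 was at 8.60 and 9.01 TPM and Tspan2 at 5.58 and 4.74. Gpr17, a G protein-coupled receptor that is on for a short time as precursors commit, was at 4.34 and 6.45 TPM. Its level was below that of Pdgfra in both libraries (log2 -0.93 ± 0.49), by a ratio that did not pass 2-fold in both.

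Gpr17 was far above Neu4, a sialidase of the same stage, which was at 0.21 and 0.17 TPM on 24 and 42 counts. That pair differed 18.6-fold on TPM + 0.1, the largest ratio of the 16 compared (log2 4.22 ± 0.54). The size depends on the pseudocount, since Neu4 is so low: with a pseudocount of 1 the log2 ratio was 2.41, below the 2.71 of Gpm6b over Mbp. Gpr37, another receptor of the lineage, was at 2.26 and 1.59 TPM and was lower than Gpr17 in both libraries, though by under 2-fold in replicate 1. Itpr2, a calcium release channel of the endoplasmic reticulum, held 2.59 and 2.58 TPM.

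Bcas1 and Enpp6, which mark oligodendrocytes as they begin to form myelin, were both low. Bcas1 was at 2.00 and 1.76 TPM and Enpp6, a choline phosphodiesterase, at 0.44 and 0.36, a ratio of 3.97-fold on TPM + 0.1 (log2 1.99 ± 0.04, or 1.04 with a pseudocount of 1). Myrf, the membrane-bound factor required for myelin gene expression, was at 0.37 and 0.41 TPM on 135 and 219 counts. Zfp488, a zinc finger repressor that works with OLIG2, was at 1.01 and 0.91 TPM. Sox10, which acts upstream of Myrf, exceeded it 7.09-fold on TPM + 0.1 (log2 2.83 ± 0.17, or 1.65 with a pseudocount of 1).

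Myelin genes covered the widest range of the set, from 64.9 ± 8.29 TPM for Gpm6b to 0 counts in both libraries for Opalin. Gpm6b, a membrane proteolipid that neurons and astrocytes make as well, was at 70.8 and 59.1 TPM, at percentile 98.0 of protein-coding genes. Neuron markers were high, with all 5 detected and a summed level of 987 and 866 TPM, and their part in the Gpm6b level was not tested. Without Gpm6b, the genes that stood out were Cnp, Cldn11 and Mbp. How much of their levels came from oligodendrocytes and how much from other cells of the tissue was not tested.

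Cnp, the cyclic nucleotide phosphodiesterase of myelin, was at 11.7 and 12.6 TPM. Cldn11, a claudin that forms the tight junctions of central myelin, was at 12.9 and 8.37 TPM. Mbp, whose protein compacts the cytoplasmic faces of the membrane, was at 6.74 and 11.9 TPM. That is the level of the whole gene, which is used in the pairs with Mbp. Its transcripts from the downstream start, the classic myelin forms described below, summed to 1.57 and 7 TPM. The order of these 3 genes was not the same in the libraries, and neither Cnp over Mbp (log2 0.43 ± 0.50) nor Cldn11 over Mbp (0.21 ± 1.01) passed 2-fold in both. Gpm6b was above Mbp in both, by 7.14-fold (log2 2.84 ± 0.76).

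Mag, a cell adhesion protein of the innermost myelin wrap, was much lower, at 1.14 and 2.73 TPM. In replicate 1, 0.22 TPM of that, or 19.45%, was on Mag-206, a transcript of 338 bases, on 1 count. Mag passed 1 TPM in replicate 1 only with that transcript. Whole-gene Mbp exceeded whole-gene Mag 4.84-fold (log2 2.28 ± 0.26). The downstream Mbp transcripts, at 1.57 and 7 TPM, were closer to Mag, and their ratio to it was not among the pairs compared. Genes for other structural proteins of mature myelin were at or near 0. Mobp had 0 counts in replicate 1 and 72 in replicate 2 (0.25 TPM), Ermn had 0 and 18 counts (0.04 TPM), and Mog, on the outer face of myelin, had 0 and 2. Opalin, a membrane glycoprotein of mature cells, had none in either. A count of 0 allows up to 3 counts, which is 0.0641 CPM (counts rescaled to a common library total) in replicate 1 and 0.0423 in replicate 2 on the TMM scale, and covers counting error only.

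Genes of myelin lipids and transport were low but mostly measurable. Ugt8a, which makes galactosylceramide, was at 1.15 and 1.12 TPM, and Fa2h, which hydroxylates the fatty acids of those lipids, at 0.09 and 0.32 TPM on 16 and 67 counts. Ugt8a was 4.37-fold above Fa2h on TPM + 0.1 (log2 2.13 ± 0.83), but with a pseudocount of 1 the log2 ratio was 0.83, under 2-fold, and on coding transcripts alone it was 3.03. Aspa, which releases acetate from N-acetylaspartate, was at 0.63 and 0.73 TPM, Gjc3, a connexin, at 0.62 and 0.78, and Mal, a raft proteolipid, at 0.91 and 0.48. Of the 16 pairs compared within libraries, 10 were called, meaning that 1 gene was 2-fold or more above the other in each library.

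The promoters of 4 myelin genes are shown because 3 of them, Mag, Mobp and Ermn, were among the myelin genes with the largest differences between the isolates, while Cnp was well expressed and close in both. The sequences are from the RefSeq promoter table on GRCm38.p6, 5′ to 3′ on the strand of the gene, and run from 250 bases before the RefSeq start up to the first base of the gene in the annotation. They are chr7:30914874-30915113 for Mag (minus strand), chr9:120149492-120149706 for Mobp (plus), chr2:58052865-58053114 for Ermn (minus) and chr11:100574689-100574903 for Cnp (plus). Capitals mark the Sox core motifs ACAAAG and ACAATG and the MYRF motif CTGGCAC, on either strand.
Mag: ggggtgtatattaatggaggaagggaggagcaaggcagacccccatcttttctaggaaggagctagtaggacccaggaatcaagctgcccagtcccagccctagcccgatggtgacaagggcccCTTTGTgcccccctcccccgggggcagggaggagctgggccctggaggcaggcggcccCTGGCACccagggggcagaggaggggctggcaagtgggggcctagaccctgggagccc
Mobp: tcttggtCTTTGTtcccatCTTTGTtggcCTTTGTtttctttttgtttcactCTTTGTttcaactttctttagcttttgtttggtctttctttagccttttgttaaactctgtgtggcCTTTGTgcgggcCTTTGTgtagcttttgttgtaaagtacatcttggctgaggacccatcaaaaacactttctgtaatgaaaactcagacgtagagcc
Ermn: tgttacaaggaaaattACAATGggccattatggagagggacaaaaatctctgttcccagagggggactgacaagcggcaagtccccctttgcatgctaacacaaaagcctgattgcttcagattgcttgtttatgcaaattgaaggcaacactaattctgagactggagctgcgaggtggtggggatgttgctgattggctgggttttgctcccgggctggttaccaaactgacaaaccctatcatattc
Cnp: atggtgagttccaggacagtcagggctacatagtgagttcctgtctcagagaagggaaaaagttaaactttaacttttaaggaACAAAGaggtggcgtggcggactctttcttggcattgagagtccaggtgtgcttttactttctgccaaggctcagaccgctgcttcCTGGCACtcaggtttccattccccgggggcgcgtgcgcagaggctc

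Mag and Cnp each held ACAAAG and CTGGCAC, Mobp held ACAAAG at 6 places, each time read on the opposite strand as CTTTGT, and Ermn held ACAATG at 1 place. Of the 34 named genes, 27 were in the promoter table, which held 27025 genes. Within 250 bases before the start, a Sox core motif of either form was in 8 of those 27 (29.6%) and in 25.5% of all promoters. CTGGCAC was in 2 of 27, Mag and Cnp, and in 4.14% of all. The E-box CAGCTG, a site that basic helix-loop-helix factors can bind, was in 3 of 27 and in 12.8% of all. A match describes these letters only.

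Which transcript carried a gene was read from the deposited share of gene TPM per transcript, for 15 of the genes. The leading transcript was the same in both libraries for 12 of them, 7 of which had only 1 transcript in the tables. Pdgfra-201 carried 100% and 85.5% of Pdgfra, Cnp-201 carried 96.7% and 85.1% of Cnp, and Tspan2-201 and Cd9-201 carried 100% of their genes in both. Cnp-203, a noncoding transcript of 322 bases, took 11.4% of Cnp in replicate 2 on 9 counts.

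By share of TPM, Mag, Gpm6b and Bcas1 had different leading transcripts in the libraries, and by share of counts Mag alone of these 3 did. Gpm6b-209 and Gpm6b-201 were level in replicate 1, at 35.15% and 35.03% of TPM, and stood at 36.1% and 40.5% in replicate 2, and Gpm6b-209 held 45.0% and 46.3% of the counts. Mag-203 carried 68.0% in replicate 1 and 0% in replicate 2, and Mag-201 carried 0% and 80.5%. The lengths of those coding transcripts are 2434 and 2419 bases, and the tables do not show how well reads told them apart. Bcas1-204, a noncoding transcript of 688 bases, took 55.8% of Bcas1 in replicate 1 on 34.9 counts and none in replicate 2, where the coding Bcas1-208 carried 76.9%. Of the counts, Bcas1-208 held the most in both, 37.8% and 79.1%.

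The level of Mbp was made up of transcripts from distant starts, and the downstream forms differed far more between the isolates than the upstream forms. Mbp spans 82475146 to 82585637 on the plus strand of chromosome 18 (mm10). The upstream starts give the Golli transcripts, which neurons and immature cells also make, and the starts 79.1 kb downstream give the classic myelin forms. Golli transcripts, of which the tables hold 4, summed to 5.18 TPM in replicate 1 and 4.95 in replicate 2 on 1626 and 2835 counts. The 12 transcripts of the downstream start summed to 1.57 and 7 TPM on 204 and 1658 counts.

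On TMM-scaled counts the downstream forms were 5.36-fold higher in replicate 2 (log2 2.42, 95% counting interval 2.21 to 2.64). For the upstream forms the log2 ratio was 0.20 (0.11 to 0.29), and the whole gene stood at 0.69 (0.62 to 0.77). Upstream forms therefore held 76.8% of Mbp TPM in replicate 1 and 41.4% in replicate 2 (59.1% ± 25.0), and 88.9% (87.3 to 90.3) and 63.1% (61.7 to 64.5) of its counts. These intervals are exact Clopper-Pearson intervals and take each read as its own molecule, which is not known without molecular identifiers, so the spread they show is that of counting alone. Upstream Mbp-201 and Mbp-205 extend past the first downstream start, so the counts of the start groups are estimates. The intervals leave out the error of that division, and how well reads told the start groups apart is not known.

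The leading Mbp transcript was Mbp-205, a Golli form, in both libraries, with 65.2% and 33.3% of Mbp TPM. Mbp-211, from the downstream start, came next in replicate 2, with 9.59% and 30.5% on 81.4 and 849 counts. A split by start was also made for Gpm6b, whose starts lie 106 kb apart. Its upstream forms held 75.1% and 76.6% of its TPM, shares that lay far closer together than those of Mbp.

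**Figure D2:**
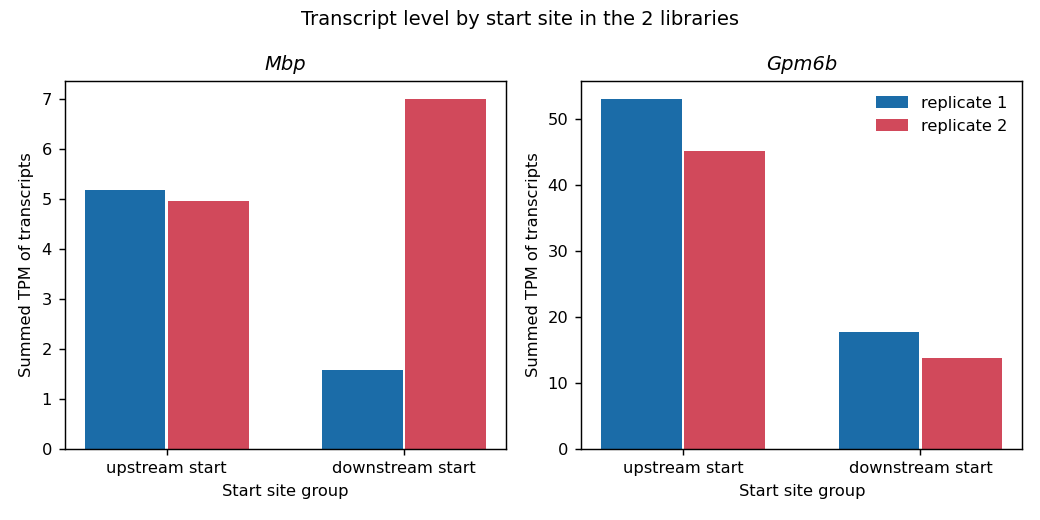
Summed TPM (vertical) of the transcripts from the upstream and the downstream start of Mbp (left) and Gpm6b (right), 1 bar per library. The downstream bar of Mbp stands at 1.57 in replicate 1 and 7 in replicate 2, while the upstream bars stand at 5.18 and 4.95.

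Between the isolates, 5 of the 31 genes that had 10 or more counts in sum differed by 2-fold or more on TMM-scaled counts, all of them higher in replicate 2. That is 16.1% of them, beside 16.2% of all 18554 genes, so the share was that of all genes and says nothing particular about the lineage. Over all genes 8.94% were higher in replicate 2 and 7.31% higher in replicate 1. None of the 9 precursor genes was among the 5, which held 1 of 10 genes of committed and newly formed cells and 4 of 12 myelin genes.

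The gene with the largest well-counted difference was Mag, with 149 counts in replicate 1 and 733 in replicate 2, a log2 ratio of 1.69 (1.44 to 1.96) or 3.22-fold. Mobp, at 0 and 72 counts, was at least 15.8-fold higher in replicate 2, and Ermn, at 0 and 18 counts, at least 3.96-fold, both against the floor of 3 counts in replicate 1. With the counting error of both libraries, the lower limits of their log2 ratios were 3.65 and 1.54. Fa2h had a log2 ratio of 1.38 (0.66 to 2.35). Its coding transcript Fa2h-201 ran the other way, with 16 and 7.15 estimated counts (0.09 and 0.02 TPM). All other Fa2h counts of replicate 2 lay on transcripts without a coding frame, 36.0 on Fa2h-204, which retains an intron, and 23.8 on Fa2h-202.

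Enpp6 had 27 and 137 counts, a log2 ratio of 1.68 (1.14 to 2.40), yet its TPM was slightly lower in replicate 2. In replicate 1, 80.3% of its TPM was placed on a retained-intron transcript of 586 bases, Enpp6-204, with 8.37 counts. In replicate 2, 92.3% was on the coding transcript Enpp6-201, whose estimated counts were 18.6 and 133. The direction for Enpp6 thus depends on the scale, and on TPM + 0.1 its log2 ratio was -0.23.

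The next highest ratios, all under 2-fold, were those of Bcas1 (log2 0.97), Gpr17 (0.86), Aspa (0.84), Olig2 (0.78) and Mbp (0.69). On TPM + 0.1 Bcas1 turned to -0.18, with its short noncoding transcript in replicate 1 as given above. In all, 27 of the 31 genes had a ratio above 0, beside 50.9% of all genes, and those below it were Ptprz1 (-0.05), Gpr37 (-0.22), Cldn11 (-0.34) and Mal (-0.63). With library totals as the scale 26 were above 0, and on deposited TPM + 0.1, where all genes shifted down, 16 were above 0, beside 27.5% of all genes. Their median log2 ratio was 0.35 on TMM-scaled counts, with 0.43 for precursor genes, 0.17 for committed and newly formed cells and 0.65 for myelin genes. Ratios and medians rest on 1 library a side and have no replicate check.

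**Figure D3:**
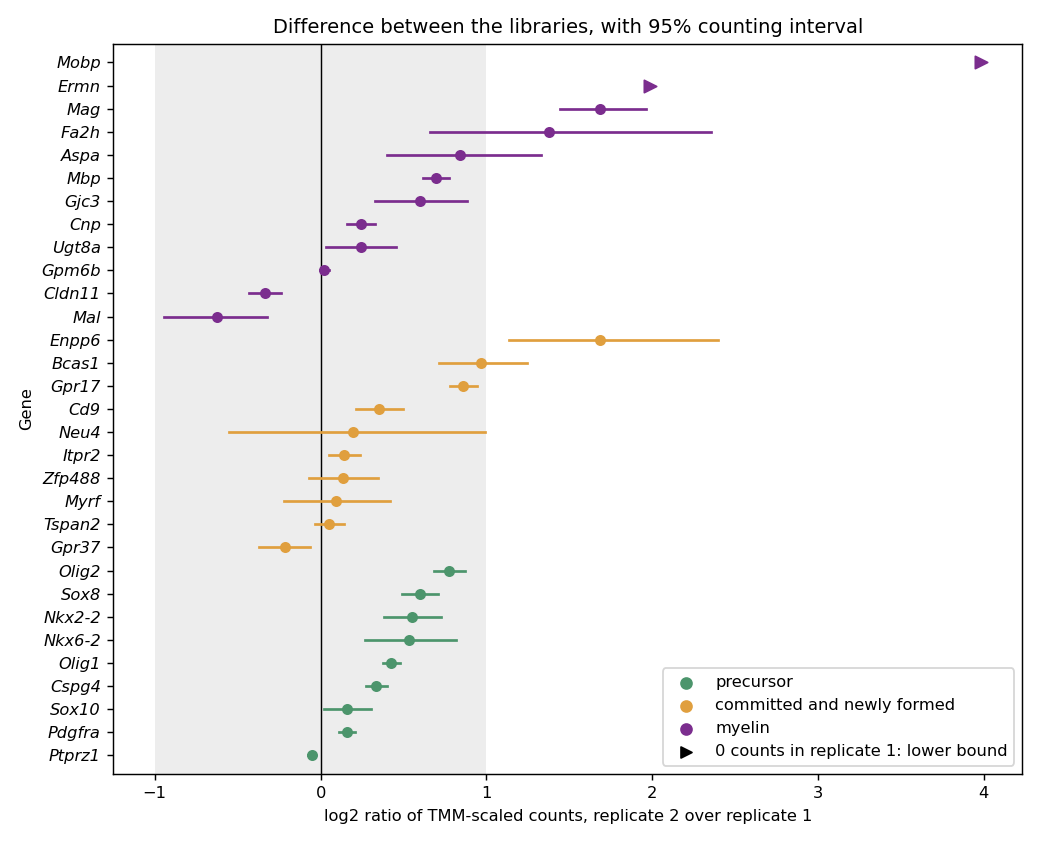
Log2 ratio of TMM-scaled counts, replicate 2 over replicate 1 (horizontal), for each gene (vertical) with its 95% counting interval, coloured by stage; the shaded band is under 2-fold, and triangles are lower bounds for genes at 0 counts in replicate 1. Mag, Fa2h, Mobp, Ermn and Enpp6 lie to the right of the band and no gene lies to the left of it.

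Markers of neighbouring regions were also higher in replicate 2. Of 6 hindbrain Hox genes, which are off in the midbrain proper, 5 were at least 2-fold higher in replicate 2, beside 8.94% of all genes. Their summed level over all 6 was 0.70 and 6.82 TPM, and Hoxa5 had 2 and 432 counts. Of 5 choroid plexus markers 3 were at least 2-fold higher in replicate 2, and Clic6 (log2 0.76) and Kl (0.20) were higher by less. The sum of the 5 was 17.4 and 168 TPM, nearly all of it Ttr (14.4 and 162.6). No hindbrain or choroid plexus gene was higher in replicate 1. Whether tissue from outside the midbrain had a part in the Mag, Mobp, Ermn or downstream Mbp differences was not tested.

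Radial glia and astrocyte markers were mostly higher in replicate 2 as well, with a median log2 ratio of 0.48 over 7 genes, beside 0.35 for the 31 lineage genes. Hopx alone of them passed 2-fold (log2 1.26), while Gfap stood at 0.97, Aldoc at 0.55 and Fabp7 at -0.45. The part of these cells in the differences of lineage genes was not tested. None of the meningeal fibroblast, mural and neuron markers differed by 2-fold. Among the Schwann cell markers, Cdh19 was higher in replicate 2 (log2 1.40 on 4 counts in replicate 1), at a very low level.

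Regulators that act beside the members were broadly expressed and even between the isolates. Of 21 such factors, 20 were detected, beside 53.8% of all protein-coding genes. None differed by 2-fold, beside 16.2% of all genes, and their median log2 ratio was 0.13. The highest were Id4, an inhibitor of helix-loop-helix factors, at 48.7 ± 11.4 TPM, Sox4 at 37.2 ± 8.74, Smarca4, a chromatin remodelling ATPase, at 36.4 ± 0.792, and Sox11 at 32.7 ± 7.91. These genes are made by many cells of the newborn brain and do not mark the lineage.

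Of 26 ligands and receptors known to act on the lineage, 21 were detected, beside 53.8% of all protein-coding genes. Thra, a thyroid hormone receptor, was the highest at 165 and 155 TPM, followed by Cntn1, an axonal adhesion protein, at 60.4 and 55.1. Lingo1, a neuronal receptor component that restrains differentiation, was at 27.1 and 33.6, and Adgrg1, an adhesion receptor of precursors, at 21.8 and 22.7. Only Shh, the ventral morphogen that induces Olig2, differed by 2-fold, at 0.31 and 0.55 TPM (log2 1.07).

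Other genes known from precursors and newly formed cells were detected in 13 of 18 cases, beside 53.8% of all protein-coding genes. Fyn, a kinase that starts myelin formation, led with 28.4 and 22.2 TPM, followed by Cacng4 (23.8 and 20.6), Epn2 (18.4 and 13.6) and Sirt2 (13.7 and 15.9). S100a3, with 0 and 36 counts, was the only one that differed by 2-fold.

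Of 27 other genes of mature oligodendrocytes and myelin, 15 were detected, beside 53.8% of all protein-coding genes. That count is near the share of all protein-coding genes and says nothing particular about the lineage. Apod, a lipid-binding protein that fibroblasts also make, was at 20.8 and 14.5 TPM, Cers2, a ceramide synthase, at 13.4 and 10.7, Cmtm5 at 6.27 and 10, and Car2, a carbonic anhydrase, at 6.79 and 9.20. Ninj2 and Klk6 had 0 counts in both libraries. Hapln2, of the nodal matrix, was higher in replicate 2 (log2 1.22), while Ppp1r14a was higher in replicate 1 (log2 -1.49, on 14 counts there). Late genes thus did not all differ the same way as Mag and Mobp.

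**Figure D4:**
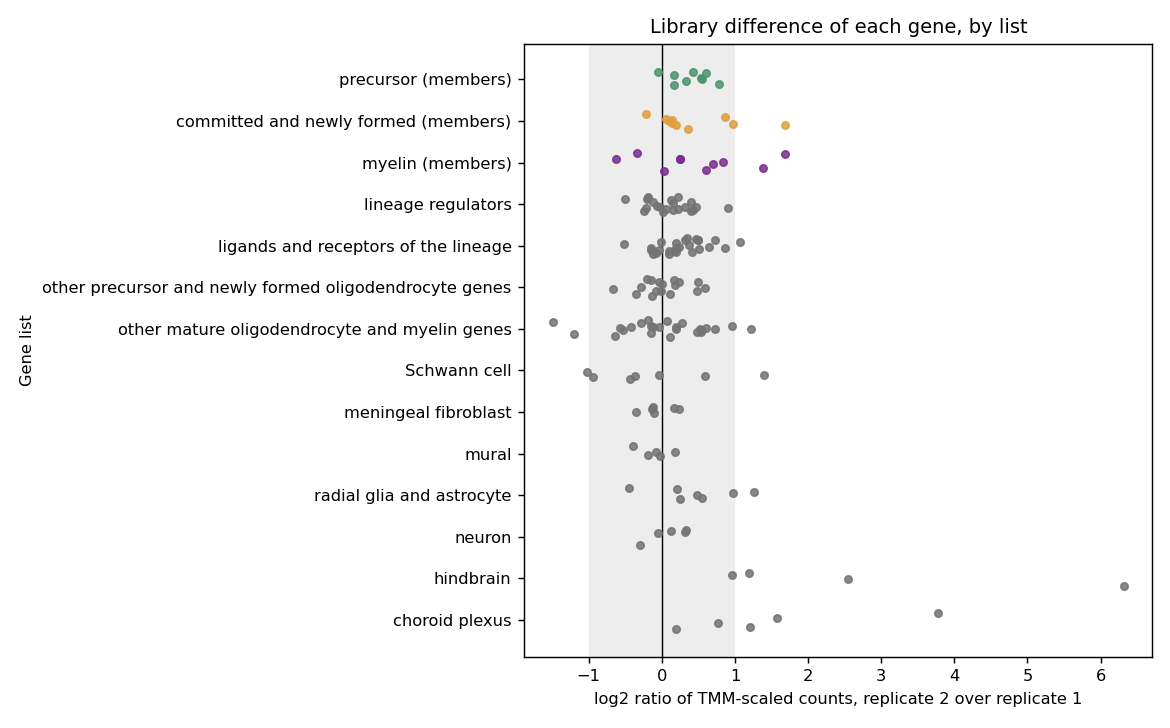
Log2 ratio of TMM-scaled counts, replicate 2 over replicate 1 (horizontal), for every gene of each list (vertical), 1 point per gene; the shaded band is under 2-fold, and genes at 0 counts in a library are not drawn. No lineage regulator leaves the band, and the points farthest to the right are hindbrain and choroid plexus genes.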

How the data were processed

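Total RNA of 2 midbrain libraries, 1 group, was measured by the authors, and 1 gene table and 1 transcript table per library were used. Per the notes deposited with each sample, quantification ran on transcriptome alignments to mm10 with GENCODE M4. Which aligner and quantification program were used is not given in the sources used here. In the tables deposited by the authors, the expected counts, also called estimated counts, divide reads that fit several features and need not be whole. The deposited TPM have the same sum over all rows of each library, and deposited FPKM served as an alternative. The percent of gene TPM per transcript was taken as deposited. The authors' credibility bounds of TPM (unit score in the file headers) carry no stated level and are not printed.

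Symbols, classes and coordinates came from GENCODE M21 on the same assembly, and 884 of 43346 gene identifiers had no match there. Counts were rounded and scaled with TMM in edgeR 4.0.16 (R 4.3.3), and ratios had a prior count of 2 with a minimum summed count of 10. Because each side held 1 library, no test was run and no p-value is given. Pairs were compared on log2(TPM + 0.1). Motifs were searched on both strands with Python 3.11.15 and intervals computed with SciPy 1.17.1. The scaling was tested only on simulated counts with counting error alone and as many genes raised as lowered. That setting does not cover the larger spread between these libraries. A chi-square over genes (954101 on 18553 degrees of freedom) was far above what 1 library deposited again would give. Nothing ties the isolates to separate litters, so the spread between them may be partly technical.

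The genes, their stages, the pairs and the lists were chosen with earlier results of these data known. The rule named every member, the 4 highest genes of each other list and those at 0 counts in both libraries, and the leading transcript of each of 15 genes. List genes that differed by 2-fold, marker genes, Mag-206, and the transcripts of Enpp6, Fa2h, Nkx2-2 and Nkx6-2 were named after their values were seen. So were the 4 genes whose promoters are printed. One listed precursor gene, 9630013A20Rik, did not match and was left out, and some list genes that differed by 2-fold are not reported here. Alternatives covered thresholds, pseudocounts, FPKM, coding transcripts alone, DESeq2 1.42.0 size factors, library totals and single libraries.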

Additional observations from a re-analysis of the deposited data

How the results depend on the processing

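No paired analysis was possible because the labels give 1 group, so the replicate numbers pair no samples. The number of genes detected was 21, and 16 to 27 over all alternatives (21 to 22 from a single library). The precursor over myelin log2 ratio of 3.09 lay between 2.85 and 3.27 (2.91 to 3.27 from a single library). The number of pairs that differed by 2-fold was 10, and 9 to 11 over all alternatives (11 in each library alone). The count of genes that differed between the libraries was the least stable. It was 5 as reported, 2 with a summed count of at least 100, which removes Mobp, Ermn and Fa2h, and 3 on deposited TPM + 0.1, which is not scaled between libraries. It was 3 without genes at 0 counts in a library, an alternative chosen after seeing the data. On deposited TPM + 0.1 the Enpp6 log2 ratio turned to -0.23, with the placement of its counts on transcripts of different length given above. The upstream share of Mbp was 59.1% of TPM and 76.0% of counts. Low counts limit some of the late myelin genes, with Mog, Mobp, Ermn and Opalin at 0 to 72 counts, and no difference could be called for Mog and Opalin.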
